A study of Mus musculus with 4 samples.

Results

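The Sox genes examined here were *Sox2*, *Sox3*, *Sox4*, *Sox5*, *Sox6*, *Sox8*, *Sox9*, *Sox11*, *Sox12* and *Sox21*. These 10 genes were picked by symbol from GENCODE M21 among the 55573 Ensembl genes of each count file, and all 10 were found, each under a single identifier. RNA was sequenced from tdTomato-positive cells sorted from mouse embryos at E16, from 2 libraries of *Hmx3-Cre/tdTomato/Dnmt1* wild-type embryos (WT) and 2 libraries of *Hmx3-Cre/tdTomato/Dnmt1 loxP* embryos (KO). All embryos carried the Cre driven by *Hmx3* and the tdTomato reporter. In KO, Cre removed floxed exons of *Dnmt1*, the maintenance DNA methyltransferase, in cells that express or once expressed *Hmx3*. The WT cells came from a pool of 12 embryos and the KO cells from a pool of 6. The labels call the libraries biological replicates, whereas the study's methods describe technical duplicates of pooled samples, so p-values measure the spread between libraries and need not measure that between embryos. The dissected region is the basal telencephalon in the labels and the preoptic area (POA) in the study's text, and the day of insemination was counted as embryonic day 1.

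Sox proteins are transcription factors that bind DNA through an HMG box and usually act with partner factors such as POU proteins. In the embryonic brain, SoxB1 proteins (*Sox2*, *Sox3*) are known to keep neural progenitors in their state, whereas the SoxB2 protein encoded by *Sox21* represses genes that SoxB1 proteins activate. SoxC proteins (*Sox4*, *Sox11*, *Sox12*) act in newly born neurons, SoxD proteins (*Sox5*, *Sox6*) lack a transactivation domain and modulate other Sox proteins, and SoxE proteins (*Sox8*, *Sox9*) act in gliogenesis, with *Sox9* required for astrocyte and early oligodendrocyte specification. *Sox6* also acts in postmitotic cortical interneurons. The comparison therefore asked how progenitor, neuronal and glial Sox genes stood in sorted cells with and without *Dnmt1*.

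DNMT1 methylates cytosines in CpG dinucleotides, and the CpG content of Sox promoters is shown first because the genotypes differ in this enzyme. DNA methylation was not analysed here. RefSeq promoter windows of GRCm38.p6, each of 300 bases with 250 before the transcription start, were found for 8 of the 10 genes. A window held 27 CpG for *Sox2*, 22 for *Sox21*, 12 for *Sox4*, 21 for *Sox11*, 47 for *Sox12*, 21 for *Sox8* and 3 for *Sox5*, against a median of 7 over all 32851 windows. *Sox6* had 6 windows with 2 to 13 CpG. The *Sox5* window and 5 of the 6 *Sox6* windows lie wholly inside the annotated gene. The letters AACAAT, which contain the core that Sox proteins bind, were searched on both strands and occurred in 1 of the 13 member windows, a *Sox6* window, and in 10.7% of all windows. The 250 bases before the start are printed for *Sox21* and *Sox8*, which rose in KO, and for *Sox11*, the most abundant Sox gene, in the direction of the gene with CpG in capitals. They lie on the minus strand at chr14:118237031-118237280 for *Sox21*, chr17:25570687-25570936 for *Sox8* and chr12:27342719-27342968 for *Sox11*.
Sox21: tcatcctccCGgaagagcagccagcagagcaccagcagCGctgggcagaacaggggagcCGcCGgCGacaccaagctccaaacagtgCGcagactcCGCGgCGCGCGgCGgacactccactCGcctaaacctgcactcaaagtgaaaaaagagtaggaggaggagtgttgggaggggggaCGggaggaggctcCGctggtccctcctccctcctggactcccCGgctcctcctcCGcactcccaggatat
Sox8: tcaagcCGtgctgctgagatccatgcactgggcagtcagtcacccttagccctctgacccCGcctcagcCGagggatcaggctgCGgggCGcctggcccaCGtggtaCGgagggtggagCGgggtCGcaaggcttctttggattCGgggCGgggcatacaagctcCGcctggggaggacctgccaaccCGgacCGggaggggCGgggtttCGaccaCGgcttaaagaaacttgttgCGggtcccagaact
Sox11: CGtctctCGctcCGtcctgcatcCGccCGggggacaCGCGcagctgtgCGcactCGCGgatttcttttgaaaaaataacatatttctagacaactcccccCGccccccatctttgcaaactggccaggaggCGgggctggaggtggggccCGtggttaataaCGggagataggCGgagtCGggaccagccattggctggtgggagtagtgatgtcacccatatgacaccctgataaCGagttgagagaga
These stretches held 17 CpG for *Sox21*, 18 for *Sox8* and 17 for *Sox11*. No window was found for *Sox3* or for *Sox9*, which also rose in KO. Whether CpG content is related to the changes was not tested.

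The libraries held 8075102 to 9995968 counted reads, so that 3 counts equal 0.294 to 0.372 CPM, the unit of counts that were divided by the TMM-scaled size of their library. Mitochondrial rRNA took 8.66% of the counts of WT 1 and 1.51% to 2.32% of the others. The targeted gene *Dnmt1* was counted 3103 and 4557 times in WT and 2383 and 2552 times in KO, or -0.56 as log2 fold change (edgeR adjusted p = 0.0511), and passed in 8 of 11 alternative fits; counts per gene do not resolve the deleted exons. *Hmx3* was present at 84.3 ± 8.11 CPM in WT and 82.8 ± 15.5 CPM in KO (SD, n = 2 each). The interneuron genes *Gad1*, *Gad2* and *Dlx1*, taken as markers of the labelled cells, were present in every library. Their means were 156, 217 and 670 CPM in WT and 127, 174 and 580 CPM in KO. Both genotypes also held *Pdgfra*, a marker of oligodendrocyte precursors, at 726 CPM in WT and 840 CPM in KO. The proliferation gene *Mki67* was at 216 and 210 CPM. In bulk samples such as these, fewer cells of a type and less RNA per cell cannot be told apart.

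In KO, 3 of the 10 Sox genes rose, namely the SoxB2 gene *Sox21* by 2.70-fold and the SoxE genes *Sox8* by 2.18-fold and *Sox9* by 1.95-fold. The SoxC genes *Sox11* and *Sox4* and the SoxB1 gene *Sox2* had lower CPM in both KO libraries than in both WT libraries, but did not pass the test. *Sox3*, *Sox12* and *Sox5* overlapped between genotypes. Over all 16832 genes tested, 7.33% were higher and 0.570% lower in KO with an adjusted p from edgeR under 0.05, or 7.90% in either direction, whereas among the Sox genes 3 were higher and 0 lower. All 10 genes met the level of the filter on low counts, 1.13 CPM before TMM scaling, in both libraries of each genotype. For genes of other lists that met it in the libraries of 1 genotype alone, counts are given without a test, and the lists are counted without them. At an unadjusted p under 0.05, 1 Sox gene, *Sox11*, was lower, against 8.01% of all genes, and DESeq2 called 1 lower. Both KO libraries lay above both WT libraries for 4 of the 10 Sox genes and below them for 3, where 28.3% and 25.2% of all genes did so. After a correction for exonic length and GC content the numbers of all genes called changed from 1233 higher and 96 lower to 1851 and 903, while those of the Sox genes became 4 higher, with *Sox6* added, and 1 lower, *Sox4*.

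**Figure D1:**
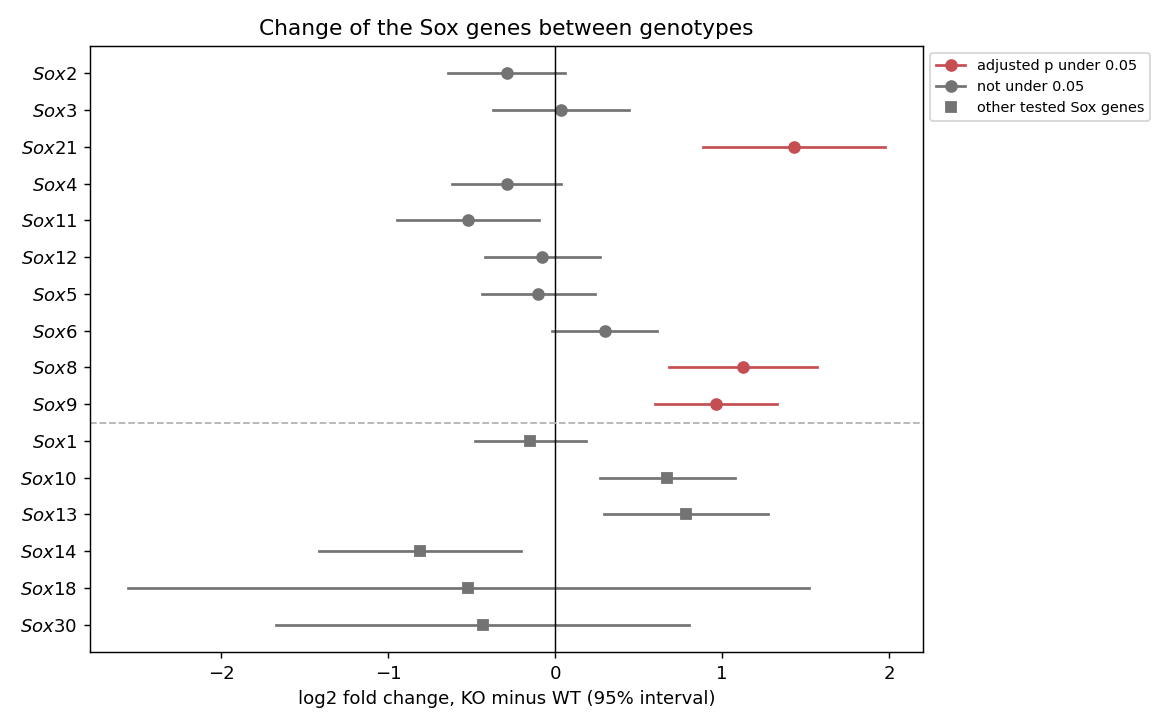
The log2 fold change of each Sox gene (KO minus WT, horizontal axis) is plotted with its 95% interval from edgeR, members above the dashed line as circles and other tested Sox genes below it as squares, in red where the adjusted p was under 0.05. *Sox21*, *Sox8* and *Sox9* sit at 1.43, 1.12 and 0.96 with intervals to the right of 0, and *Sox7*, which had no WT counts, is not drawn.

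Among the glial Sox genes, *Sox9* (chromosome 11 of GRCm38, 112782224 to 112787760, plus strand, 3 exons) encodes a factor of astrocyte and early oligodendrocyte fate. It was counted 289 and 314 times in WT and 531 and 604 times in KO, or 35.9 and 30.8 CPM in WT and 63.1 and 66.5 CPM in KO. Both KO libraries were thus well above both WT libraries, which differed from each other by less than the genotypes did. The mean rose from 33.3 ± 3.61 to 64.8 ± 2.40 CPM (SD, n = 2 each), or 0.96 on the log2 scale (standard error 0.16, 95% interval 0.60 to 1.33, edgeR adjusted p = 0.00752). *Sox8* (chromosome 17, 25565892 to 25570686, minus strand, 3 exons) encodes the paralog that shares many functions with *Sox9* in glia. It was counted 149 and 244 times in WT and 363 and 450 times in KO, or 18.5 and 23.9 CPM against 43.2 and 49.6 CPM. The lower KO library was again above the higher WT library. The mean rose from 21.2 ± 3.83 to 46.4 ± 4.53 CPM (SD, n = 2 each), or 1.12 on the log2 scale (standard error 0.19, 95% interval 0.68 to 1.57, edgeR adjusted p = 0.00914). An antisense gene, *2810468N07Rik*, covers 10.6% of the exonic bases of *Sox8* and was counted 15 and 32 times in WT and 71 and 58 times in KO, and as the strand setting of the counting is not given in the sources used here, reads of the shared bases cannot be assigned to either gene. The level of *Sox8* per kilobase divided by that of *Sox9* was 0.684 and 1.03 in WT and 0.907 and 0.988 in KO, so that the balance of these paralogs overlapped between genotypes.

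Most of the listed astrocyte genes, some genes of the oligodendrocyte lineage and the mural cell genes also rose in KO. Of 12 astrocyte genes, 10 met the filter in both genotypes, of which 9 rose in KO and 0 fell (median log2 fold change 3.27), and the summed level of the 12 was 385 CPM in both WT libraries and 4418 to 4658 CPM in KO. *Gfap*, the intermediate filament of astrocytes, had no counts in WT and 149 and 198 in KO, at least 59.3-fold higher with each WT library set to 3 counts, and *Aqp4*, the astrocyte water channel, had 0 and 4 counts in WT against 591 and 567. Of 9 genes of the oligodendrocyte lineage, 8 met it, of which 4 rose and 0 fell (median 0.94), and the 9 had a summed level of 1323 to 1360 CPM in WT and 1973 to 2022 CPM in KO. The remaining gene was *Mag*, which encodes a myelin glycoprotein, with 8 and 25 counts in WT against 367 and 482. Of 5 mural cell genes, 4 met it, of which 4 rose (median 1.85), among them *Pdgfrb* with 2.88 (edgeR adjusted p = 5.79e-05), and the 5 summed to 47.8 to 52.7 CPM in WT and 308.5 to 318.6 CPM in KO. The remaining gene, *Acta2*, was at least 249-fold higher from no WT counts. Their part in the rise of *Sox8* and *Sox9* was not tested.

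Among the progenitor Sox genes, *Sox2* (chromosome 3, 34650405 to 34652461, plus strand, a single exon inside the span of *Sox2ot*), the factor most closely tied to neural stem cells, was counted 1847 and 1904 times in WT and 1462 and 1510 times in KO. This gave 229.3 and 186.6 CPM in WT and 173.8 and 166.3 CPM in KO. All KO values were below all WT values, but the WT libraries differed from each other by more than the nearest WT and KO libraries did. The log2 fold change of *Sox2* was -0.29 (standard error 0.15, 95% interval -0.64 to 0.06, edgeR adjusted p = 0.302). *Sox3*, its SoxB1 paralog on the X chromosome (60891366 to 60893430, minus strand), was counted 495 and 696 times in WT and 479 and 689 times in KO, which is 61.4 and 68.2 CPM against 57.0 and 75.9 CPM. The KO libraries enclosed the WT libraries, with a log2 fold change of 0.04 (95% interval -0.37 to 0.44, edgeR adjusted p = 0.933) whose sign turned under some settings.

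*Sox21* (chromosome 14, 118233232 to 118237030, minus strand, a single exon), which encodes the SoxB2 repressor, stood apart from the SoxB1 genes. It was the least abundant of the 10 genes, with 66 and 78 reads counted in WT against 193 and 180 in KO. On the CPM scale these were 8.19 and 7.64 in WT and 23.0 and 19.8 in KO, so that every KO value exceeded every WT value. The mean rose from 7.92 ± 0.389 to 21.4 ± 2.21 CPM (SD, n = 2 each), or 1.43 on the log2 scale (standard error 0.24, 95% interval 0.89 to 1.98, edgeR adjusted p = 0.00752). The antisense gene *Gm4675* covers 18.8% of the exonic bases of *Sox21* and had 0 to 4 counts per library. The level of *Sox21* per kilobase was 0.0194 and 0.0222 of that of *Sox2* in WT and 0.0715 and 0.0645 in KO. This ratio, in which the library scaling cancels, was 3.28-fold higher in KO on average, and the libraries of the genotypes did not overlap.

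Of the radial glia and progenitor genes listed beside the SoxB genes, 4 of 10 rose and 0 fell (10 of 10 had a positive log2 fold change, median 0.78), and the summed level was 851 to 905 CPM in WT and 1286 to 1327 CPM in KO. *Gli3* and *Rfx4* had the largest increases with 3.18 and 2.57 (edgeR adjusted p = 4.61e-05 and 8.62e-05). These are transcription factors of Hedgehog signalling and of ciliated neural progenitors. None of 8 cell cycle genes passed the edgeR test (1 of 8, *Ccnb1*, named after its value was seen, at an unadjusted p under 0.05), with a median of -0.08 and summed levels of 534 to 545 CPM in WT and 512 to 520 CPM in KO. Their part in the values of the SoxB genes was not tested.

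**Figure D2:**
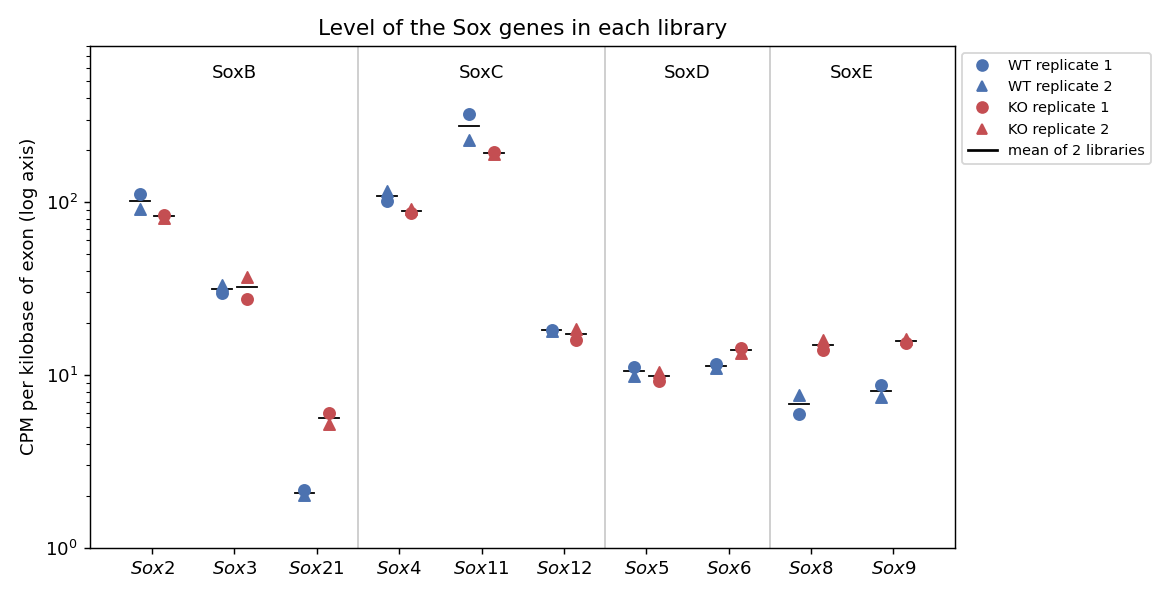
Levels of the 10 Sox genes are shown in CPM per kilobase of exon on a log axis, blue for WT and red for KO, with circles and triangles for the libraries of a genotype and a bar for their mean. *Sox11* is highest in every library (190 to 323), *Sox21* is lowest, and for *Sox21*, *Sox8* and *Sox9* the red points lie clear of the blue ones.

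The neuronal SoxC genes *Sox11* and *Sox4* had the highest mean CPM of the Sox genes in both genotypes, whereas *Sox12* was below *Sox2*, *Sox5* and *Sox6*. *Sox11* (chromosome 12, 27334264 to 27342574, minus strand, a single exon), a driver of neuronal differentiation, was counted 21646 and 19367 times in WT and 13590 and 14356 times in KO. Its CPM were 2687 and 1898 in WT and 1616 and 1581 in KO. The KO libraries were close to each other and below both WT libraries, of which WT 1 was far above WT 2. The mean was 2292 ± 558 CPM in WT and 1598 ± 24.5 CPM in KO (SD, n = 2 each), or -0.52 on the log2 scale (standard error 0.18, 95% interval -0.94 to -0.10, edgeR adjusted p = 0.142). Without WT 1 the log2 fold change was -0.26 and without WT 2 it was -0.76 (edgeR adjusted p = 0.0313 and 1.01e-15, where the lone WT library is assumed to vary like the KO libraries), so that its size rested on which WT library was used. DESeq2 gave an adjusted p of 0.0379 for *Sox11*.

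*Sox4* (chromosome 13, 28948919 to 28953713, minus strand, a single exon), which acts with *Sox11* in immature neurons, was counted 3908 and 5673 times in WT and 3496 and 3957 times in KO. In CPM these were 485 and 556 in WT and 416 and 436 in KO, with no overlap. The log2 fold change was -0.29 (standard error 0.14, 95% interval -0.62 to 0.04, edgeR adjusted p = 0.267). The antisense gene *Gm26735* covers 54.6% of the exonic bases of *Sox4* and had 0 counts in every library. As the strand setting is not given, these counts do not show whether reads of the shared bases were counted for *Sox4*. Its level per kilobase may therefore be too low. The same limit holds for the shared bases of *Sox21* and *Sox5*. *Sox12* (chromosome 2, 152393611 to 152398063, minus strand, a single exon), the third SoxC gene, was counted 654 and 817 times in WT and 593 and 747 times in KO. Its CPM of 81.2 and 80.1 in WT lay between the 70.5 and 82.3 of KO, and the log2 fold change was -0.08 (95% interval -0.42 to 0.27, edgeR adjusted p = 0.805). *Sox11* was 3.20 and 1.97 times as abundant as *Sox4* per kilobase in the WT libraries and 2.24 and 2.09 times in KO, so that WT 1 stood apart in this ratio as well.

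Of 10 neuronal genes, 2 fell in KO and 0 rose (1 of 10 had a positive log2 fold change, median -0.49). Their summed level was 6302 to 6812 CPM in WT and 4671 to 4711 CPM in KO. All but *Elavl3* and *Rbfox3*, named after their values were seen, had an unadjusted edgeR p under 0.05. Over all tested genes, 8.01% were lower at that threshold. The genes that fell were *Elavl4*, which encodes a neuronal RNA-binding protein, with -0.81 (edgeR adjusted p = 0.0258) and *Stmn2*, a microtubule regulator of growing axons, with -0.57 (edgeR adjusted p = 0.0425). *Stmn2* no longer passed with library size alone, the upper quartile, at least 10 counts in every library or the length and GC correction (adjusted p from edgeR of 0.124, 0.0519, 0.0625 and 0.120), nor without KO 1 or KO 2 (0.520 and 0.334), and *Elavl4* did not pass without KO 2 (0.253). None of 8 interneuron genes passed the edgeR test (2 of 8, *Slc32a1* and *Dlx5*, at an unadjusted p under 0.05; these were named after their values were seen), with a median of -0.25 and a summed level of 1288 to 1432 CPM in WT and 1105 to 1204 CPM in KO. Their part in the lower SoxC values was not tested.

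Among the SoxD genes, *Sox6* (chromosome 7, 115470872 to 116038796, minus strand), a regulator of interneuron positioning and of oligodendrocyte timing, was counted 1389 and 1651 times in WT and 1775 and 1808 times in KO. The CPM were 172 and 162 in WT and 211 and 199 in KO, without overlap. The log2 fold change was 0.30 (standard error 0.14, 95% interval -0.02 to 0.61) and did not pass the test (edgeR adjusted p = 0.241). *Sox5* (chromosome 6, 143828425 to 144781977, minus strand), its closest paralog, was counted 1287 and 1452 times in WT and 1112 and 1356 times in KO, or 159.8 and 142.3 CPM against 132.2 and 149.3 CPM. These values overlapped, with a log2 fold change of -0.10 (95% interval -0.44 to 0.24, edgeR adjusted p = 0.732), and the antisense gene *Sox5os1*, with 5 to 11 counts per library, covers 9.3% of its exonic bases. *Sox6* was 1.05 and 1.10 times as abundant as *Sox5* per kilobase in WT and 1.55 and 1.29 times in KO.

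SoxD proteins and *Sox9* are known as joint activators of cartilage matrix genes, and 4 of 6 such genes met the filter in both genotypes. Of these, 1 rose and 0 fell (median 0.49), and the 6 had a summed level of 82.2 to 96.4 CPM in WT and 186 to 193 CPM in KO. *Hapln1*, which links proteoglycans to hyaluronan also in the brain, was counted 8 and 0 times in WT and 116 and 130 times in KO, where alone it met the filter. *Col11a2*, a fibrillar collagen chain, rose by 1.60 on the log2 scale (edgeR adjusted p = 0.000509), whereas *Col2a1*, the cartilage collagen that *Sox9* activates, had a log2 fold change of -0.58 and did not pass (edgeR adjusted p = 0.163); it was named after its value was seen.

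Levels were also compared between the Sox genes, per kilobase of exon. In WT the order of the mean levels was *Sox11* (276 CPM per kilobase), *Sox4* (108.5), *Sox2* (101.1), *Sox3* (31.4), *Sox12* (18.1), *Sox6* (11.3), *Sox5* (10.5), *Sox9* (8.06), *Sox8* (6.80) and *Sox21* (2.08). Of neighbours in this order, the libraries of *Sox4* and *Sox2*, of *Sox6* and *Sox5* and of *Sox9* and *Sox8* overlapped. In KO *Sox11* (192), *Sox4* (88.8), *Sox2* (82.7) and *Sox3* (32.2) were again the highest, and *Sox12* (17.2), *Sox9* (15.7), *Sox8* (14.9) and *Sox6* (13.8) followed, each overlapping with the next. *Sox5* (9.79) and *Sox21* (5.63) were the lowest. *Sox11* was at or above 99.66% to 99.78% of all tested genes per kilobase in each library, *Sox2* and *Sox4* at or above 98.73% to 99.10%, and *Sox21* at or above 34.2% to 35.3% in WT and 53.2% to 56.6% in KO.

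Of the summed level of the 10 genes, the SoxC genes took 71.0% and 69.1% in the WT libraries and 63.5% and 62.6% in KO. The SoxE genes *Sox8* and *Sox9* took 2.34% and 2.88% in WT and 6.22% and 6.69% in KO. The SoxB genes took 23.0% and 24.0% in WT and 25.3% and 25.7% in KO, and the SoxD genes 3.65% and 3.97% against 5.01% and 4.98%. The share of the SoxC genes was lower in both KO libraries and that of each other subgroup was higher, and since shares add up to a whole, they are not independent of each other. *Sox9* per kilobase was 0.0778 and 0.0820 of *Sox2* in WT and 0.181 and 0.199 in KO, and 0.0268 and 0.0326 of *Sox11* in WT and 0.0785 and 0.0846 in KO. Neither ratio overlapped between genotypes, and with 2 libraries per genotype an exact two-sided permutation test cannot give a p below 0.333.

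**Figure D3:**
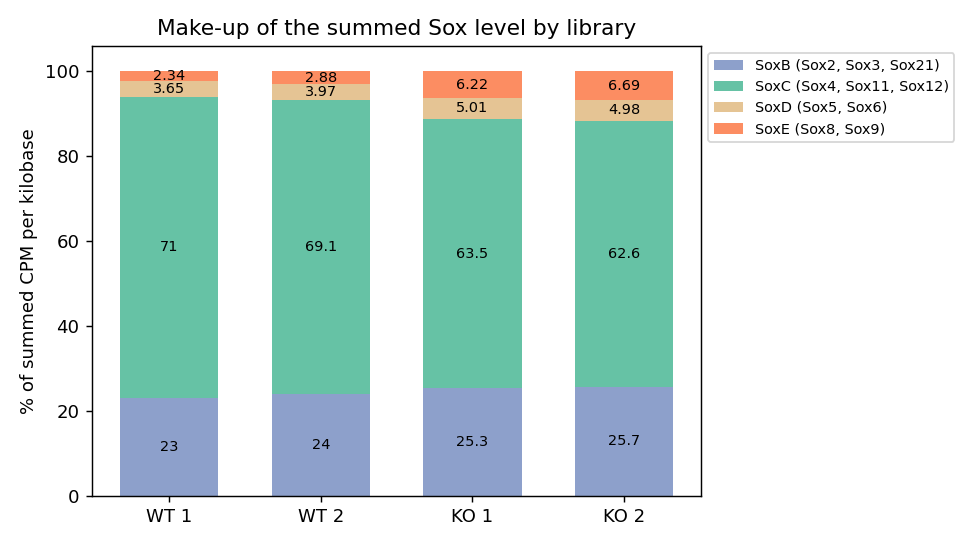
Each bar is a library and its segments are the percent of the summed CPM per kilobase of the 10 Sox genes taken by the SoxB, SoxC, SoxD and SoxE genes. The SoxE segment at the top is 2.34% and 2.88% in WT and 6.22% and 6.69% in KO, and the SoxC segment is smaller in both KO bars.

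The other annotated Sox genes extended these subgroups. *Sox10*, the third SoxE gene and a factor of the oligodendrocyte lineage, was counted 496 and 789 times in WT and 844 and 1100 times in KO. Both KO libraries lay above both WT libraries, with 69.4 ± 11.1 CPM in WT and 110.7 ± 14.7 CPM in KO (SD, n = 2 each), but the log2 fold change of 0.67 did not pass the test (standard error 0.18, edgeR adjusted p = 0.0587) and did so in 8 of 11 alternative fits. *Sox10* was 3.40 and 3.31 times as abundant as *Sox8* per kilobase in WT and 2.38 and 2.50 times in KO. The SoxD gene *Sox13* was counted 96 and 126 times in WT and 174 and 191 times in KO (log2 fold change 0.78, edgeR adjusted p = 0.0681; called in 5 of 11 alternative fits). The SoxB1 gene *Sox1* was at -0.15 on the log2 scale (edgeR adjusted p = 0.58) and the SoxB2 gene *Sox14*, which marks certain inhibitory neurons, at -0.81 (107 and 142 counts in WT, 59 and 77 in KO, edgeR adjusted p = 0.115; called in 2 of 11 alternative fits), while *Sox21* of the same subgroup rose.

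The SoxF gene *Sox7*, an endothelial factor, was absent from the counts of both WT libraries (0 each), but was counted 13 and 10 times in KO. It met the filter on low counts through KO alone, so that its test is not given. Its mean in KO was at least 3.97-fold higher with each WT library set to 3 counts. *Sox18* (4 and 16 counts in WT, 2 and 11 in KO) met the filter in neither genotype alone, *Sox30* (17 and 18 against 11 and 14) did not pass (edgeR adjusted p = 0.676), and *Sox15* and *Sox17*, with 0 to 9 counts per library, were not tested. Of the 5 genes of this list that met the filter in both genotypes, 0 were called in either direction by edgeR (3, *Sox10*, *Sox13* and *Sox14*, had an unadjusted p under 0.05), with a median of -0.15. The endothelial genes themselves had summed levels of 12.4 to 13.0 CPM in WT and 6.54 to 9.80 CPM in KO, with 0 of the 2 genes that met the filter in both genotypes called by edgeR (1 of them, *Kdr*, named after its value was seen, at an unadjusted p under 0.05; median -0.37) and none of the 4 at 0 in both WT libraries.

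Factors that act with Sox proteins were compared in the same fit. None of 6 genes listed as POU partners and *Chd7*, a chromatin remodeller that binds SOX2, passed the edgeR test, and none had an unadjusted p under 0.05 (median 0.11). The partner *Pou3f2*, which acts with SOX2 in neural progenitors, was at -0.39 on the log2 scale (edgeR adjusted p = 0.299), *Pou3f3* at 0.12 (0.627), *Pou2f1* at 0.43 (0.263), *Pou3f1* at 0.14 (0.736), *Pou3f4* at 0.09 (0.837) and *Chd7* at 0.08 (0.771). Of these, *Pou2f1* passed in 2 of 11 alternative fits and the others in 0. Of 8 gliogenic factors, 1 rose and 0 fell (median 0.49). This was *Olig2*, which specifies oligodendrocyte precursors, with 79.7 ± 0.132 CPM in WT and 123 ± 1.66 CPM in KO (SD, n = 2 each) (log2 fold change 0.63, edgeR adjusted p = 0.0298); without KO 1 or KO 2 it did not pass (edgeR adjusted p = 0.280 and 0.286).

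*Nfia*, which acts with *Sox9* at astrocyte genes, had a log2 fold change of 0.65 and did not pass (edgeR adjusted p = 0.0767), but did so in 7 of 11 alternative fits. *Olig1* (0.46, adjusted p = 0.136), *Nkx2-2* (0.61, 0.270), *Zbtb20* (0.51, 0.183) and *Nfix* (0.30, 0.283) had positive edgeR log2 fold changes and *Nfib* a negative one (-0.32, 0.365), and none of these passed. In the alternative fits *Zbtb20* passed in 5 of 11, *Olig1* in 3, and *Nkx2-2*, *Nfix* and *Nfib* in 0. Of 5 microglial genes 1 rose and 0 fell (*Csf1r*, 1.03, edgeR adjusted p = 0.0474; median 0.88; summed 24.3 to 29.5 CPM in WT and 42.4 to 51.2 CPM in KO). *Csf1r* did not pass with limma-voom (adjusted p = 0.0535) or without KO 2 (0.79 on the log2 scale, edgeR adjusted p = 0.484). Of 4 choroid plexus and ependymal genes, summing to 49.0 to 66.4 CPM in WT and 8.92 to 14.0 CPM in KO, 2 met the filter in both genotypes, and neither passed the edgeR test or had an unadjusted p under 0.05 (median 0.21). *Ttr*, the thyroid hormone carrier of the choroid plexus, was counted 329 and 564 times in WT, where alone it met the filter, and 8 and 10 times in KO. The median log2 fold change was -0.02 over the 10 Sox genes and -0.03 over all tested genes.

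**Figure D4:**
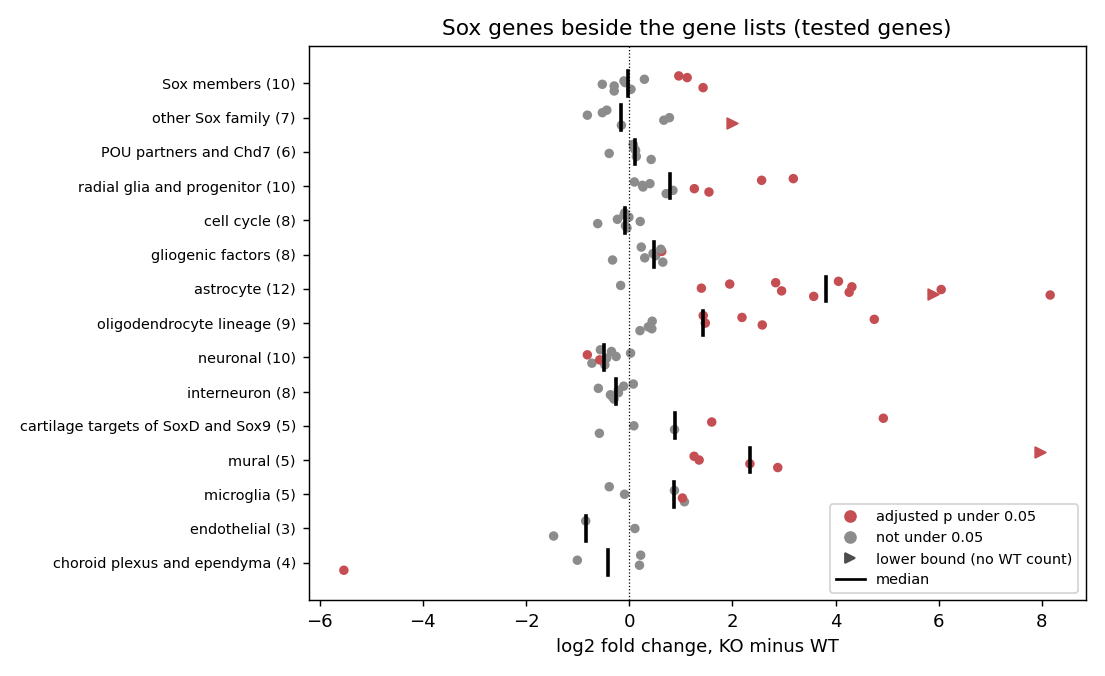
The log2 fold changes (KO minus WT) of the tested genes of each list are points, red where the edgeR adjusted p was under 0.05, with a vertical bar at the median and arrowheads at the lower bound of genes without WT counts; tested genes are counted in parentheses. The median of the Sox genes is -0.02 and that of the neuronal genes is -0.49. That of the astrocyte genes is 3.82 as drawn, and 3.27 for the 10 that met the filter on low counts in both genotypes. Genes of any list that met it in 1 genotype alone or in neither alone are drawn and coloured too, and their colour is not used as a result.

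The increases of *Sox21*, *Sox8* and *Sox9* passed the threshold under all 11 alternative fits and without each library in turn. Across the 11 fits their log2 fold changes were 1.33 to 1.54, 0.98 to 1.22 and 0.91 to 1.08. The lower values of *Sox11* passed in 3 of 11 fits, those of *Sox2* and *Sox4* in 1 each, and the higher value of *Sox6* in 2. *Sox3*, *Sox12* and *Sox5* passed in 0 of 11 fits.

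**Figure D5:**
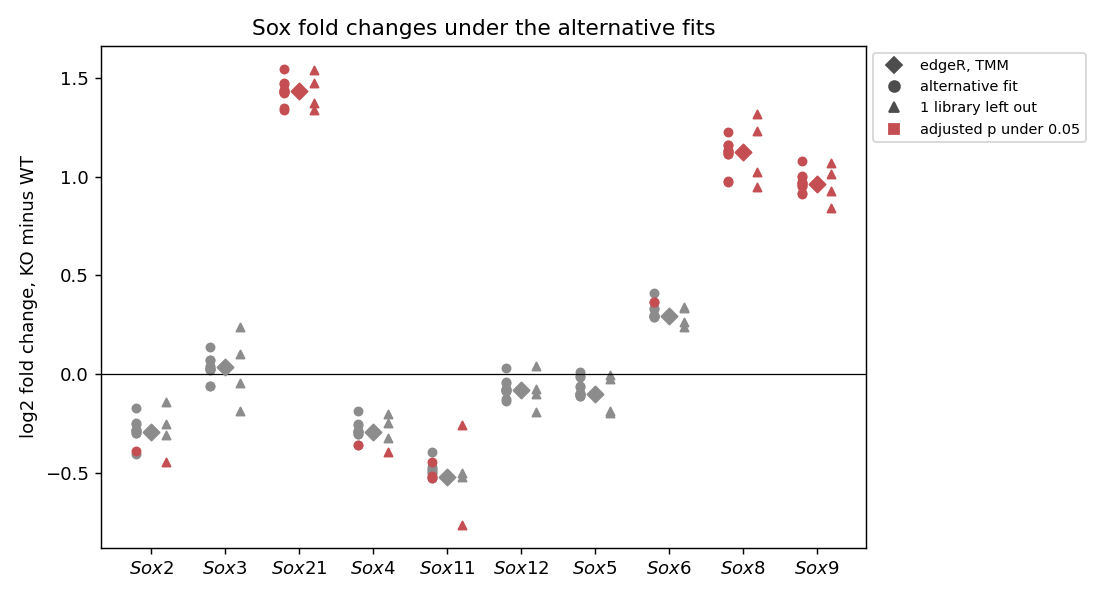
Log2 fold changes of each Sox gene (KO minus WT, vertical axis) are shown for edgeR with TMM (diamonds), the alternative fits (circles) and the fits with 1 library left out (triangles), in red where the adjusted p was under 0.05. *Sox21*, *Sox8* and *Sox9* are red throughout and above 0.84, and *Sox11* spreads from -0.76 to -0.26.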

How the data were processed

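RNA-seq of sorted cells from 2 WT and 2 KO libraries was analysed. Per library, the authors deposited a list of Ensembl genes with raw read counts. The submitters' processing notes name CASAVA 1.8.2, STAR 2.5.2a and featureCounts 1.5.0-p1 and the build GRCm38 (mm10). Annotation release, strand setting and test are not given in the sources used here.

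Of 55573 identifiers, 55480 were matched to GENCODE M21 (GRCm38), which gave symbols, positions and exonic lengths. The filter filterByExpr left 16832 genes, which were normalized with TMM and tested by quasi-likelihood F-test in edgeR 4.0.16 (with limma 3.58.1, DESeq2 1.42.0 and R 4.3.3) with genotype as the only term and Benjamini-Hochberg adjustment over all of them. Standard errors were derived from the test statistic. CPM used TMM-scaled library sizes, and levels per kilobase were divided by the union of annotated exons, which does not account for isoform use. Promoter sequences came from RefSeq. The tests of edgeR, DESeq2 and limma-voom and the replicate block were tried on simulated counts with the same spread in both genotypes. The length and GC correction was tried on a simulated GC trend. Other settings were not simulated. Floors of 3 counts cover counting error only. Libraries of 1 genotype were compared by chi-square over genes, which was 57.2 times its degrees of freedom in WT and 4.28 times in KO. This is more than counting alone gives. It cannot tell technical duplicates from biological replicates, as separate library preparation can also add spread. Each library was kept as a sample. No batch is given in the labels.

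The Sox genes and the gene lists were chosen with earlier results of these data known. Named genes are the 10 Sox genes, *Dnmt1* and *Hmx3*, all tested genes of the lists of other Sox genes, POU partners and gliogenic factors, and up to 2 genes per direction with the largest called change in the other lists; 2 genes that the rule names are not reported here and count only within their lists; further genes are said to be named after their values were seen or are given as markers of the labelled cells. Alternatives were DESeq2, limma-voom, other normalizations and filters, a block for the replicate number, a correction for exonic length and GC content, removal of mitochondrial and rRNA-like genes, other thresholds and each library left out. Protein sequences were not used here.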

Additional observations from a re-analysis of the deposited data

How the results depend on the processing

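The count of Sox genes higher in KO was 3 under the alternatives run, also with each library left out and with the replicate block, except that it was 4 with the length and GC correction, without and with the block, where *Sox6* also passed (edgeR adjusted p = 0.0410 and 0.0281). Libraries with the same replicate number share only that number; their deviations from the group means correlated across genes with 0.121, and the replicate block gave 3 Sox genes higher and 0 lower, and 1625 genes higher and 619 lower over all genes. The count of Sox genes lower in KO, 0 with edgeR, was 1 with DESeq2 and without a filter (*Sox11* in both), 1 with the length and GC correction (*Sox4*), 2 with that correction and the replicate block (*Sox2* and *Sox11*), and 0 to 2 with a library left out (*Sox4* and *Sox11* without WT 1, *Sox2* and *Sox11* without WT 2). Over all genes, the number higher was 1233 and became 1851 with the correction, 1988 with the correction and the block, 724 at an adjusted p under 0.01 and 900 to 2578 with a library left out. The number lower was 96 and became 247 with DESeq2, 573 without a filter, 52 with at least 10 counts in every library, 903 with the correction, 1117 with the correction and the block, 16 and 318 at an adjusted p under 0.01 and under 0.1, and 51 to 2180 with a library left out. These counts were outside 1.5 times the edgeR count without WT 1 (2578 higher, 1300 lower), WT 2 (2029 higher, 2180 lower) and KO 2 (51 lower). A genotype with 1 library was assumed to vary like the other. Library size alone as the normalization shifted the median log2 fold change of all genes by 0.11.

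Signs turned only for genes that did not pass the test, among those named in the text by the rule. The log2 fold change of *Sox3* was -0.0563 with the correction and -0.0588 with the correction and the block, and -0.18 to 0.24 with a library left out. With library size alone, *Sox12* was at 0.033 and *Sox5* at 0.0143, and *Sox12* ranged from -0.19 to 0.0422 with a library left out. *Hmx3* was at 0.0768 with library size, 0.0118 with the upper quartile, 0.0091 with at least 10 counts and -0.23 to 0.16 with a library left out. *Pou3f4* was at -0.0295 and -0.0436 with the correction, without and with the block, and -0.0805 to 0.26 with a library left out. *Sox18* ranged from -2.08 to 0.54 with a library left out. Counts without division by exonic length gave the SoxB, SoxC, SoxD and SoxE genes 7.95%, 81.5%, 9.04% and 1.56% of the summed Sox level in WT and 9.16%, 74.6%, 12.3% and 3.95% in KO, in place of 23.5%, 70.1%, 3.81% and 2.61% in WT and 25.5%, 63.1%, 5.00% and 6.46% in KO. The cause of these changes was not tested.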

Other observations

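Noncoding RNAs annotated beside Sox genes were also counted. *Sox2ot*, whose span encloses *Sox2* on the same strand without sharing exonic bases, was counted 1549 and 1704 times in WT and 1489 and 1709 times in KO, or 0.02 on the log2 scale (edgeR adjusted p = 0.942) with overlapping genotypes, while *Sox2* itself was at -0.29. *Sox1ot* was counted 1638 and 2191 times in WT and 1500 and 1814 times in KO (log2 fold change -0.14, edgeR adjusted p = 0.58), close to the -0.15 of *Sox1*. *Sox6os* was counted 16 and 35 times in WT and 7 and 21 times in KO (log2 fold change -0.78, edgeR adjusted p = 0.500), and *Sox6* was at 0.30. *2810468N07Rik*, antisense to *Sox8*, was at 1.55 on the log2 scale (edgeR adjusted p = 0.0580), beside 1.12 for *Sox8*. These RNAs were chosen for their position and after earlier results of these data were known.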
